A study of Mus musculus with 4 samples.

Results

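The genes described here are 36 factors, regulators and induced targets of NF-κB, chosen by gene symbol from the 26322 genes listed for MC38 cells. All 36 were found. They comprise 5 subunits, 5 genes of the IκB family, 10 kinases and kinase adaptors, 10 TRAF, cIAP and ubiquitin-linked adaptors and 6 induced genes. MC38 is a mouse colon carcinoma line. Cells labelled WT received Cas9 with a non-targeting guide (sgNT), and cells labelled CbfbKO received Cas9 with a Cbfb guide (sgCbfb), both by electroporation at least 1 week before collection. The labels name no TNF or other cytokine treatment for either group. Each group holds 2 libraries prepared with a 3′ mRNA kit, in which a transcript gives reads at its 3′ end only and read number does not grow with gene length. A single Cbfb guide was used and the sources do not say that clones were picked. Nothing in the labels says whether the replicates are separate cultures, so p-values cover no spread beyond that between these libraries.

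NF-κB is a family of dimeric transcription factors that IκB proteins hold in the cytoplasm of resting cells. Cytokines such as TNF, and ligands of Toll-like receptors, recruit TRAF and cIAP proteins to their receptors and activate TAK1 and the IKK complex, which phosphorylates IκB and so frees the dimers. Many NF-κB target genes encode its own inhibitors, and others encode proteins that protect cells from TNF-induced death, the death that the study followed in these cells. A parallel, non-canonical route runs through NIK and the processing of the Nfkb2 product.

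The libraries held between 3189035 and 3907936 reads counted on genes, so that 1 read is worth 0.256 to 0.314 CPM, the read count scaled to the library's total. Levels are the deposited log2 CPM, in which a gene without reads sits at a floor of -0.79. The test took in the 12207 genes whose log2 CPM reached 0 in 2 or more libraries, and 34 of the 36 members were among them. Cbfb, the targeted gene, stood at 6.45 and 6.43 log2 CPM in sgNT and at 5.03 and 5.31 in sgCbfb cells, which is 41.5% of the sgNT level (limma adjusted p = 1.76e-07, a call lost without the mean-variance trend of limma and without either sgCbfb library). Markers of colon epithelium were nearly absent, with 4 of 10 (Krt18, Vil1, Cldn7 and Lgals4) at 0 reads in every library and a summed level of 1.57 to 1.80 CPM, while the mesenchymal markers summed to 2229 to 2668 CPM, mostly from Vim. Of the 5 tested of these 7 markers 1, Col3a1, was called lower and 0 higher in sgCbfb cells by limma, where 2.83% of all tested genes were called. The groups also did not overlap, as for 44.1% of all tested genes, for Vim, which was lower (log2 difference -0.18), or for Pdgfra, Pdgfrb and Col1a1, which were higher (0.53, 0.82 and 0.41). Leukocyte markers summed to at most 1.54 CPM and endothelial markers to at most 0.600 CPM, with Cd3e, Itgam, Adgre1 and Kdr at 0 reads in every library. In bulk RNA, fewer cells of a kind and less RNA per cell cannot be told apart, and the part of the mesenchymal markers in the results below was not tested.

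Of the 34 tested members 3 passed the test, and most of the NF-κB machinery did not. Traf1, a TRAF adaptor that is itself an NF-κB target, fell by 0.93 on the log2 scale, to 52.5% of the sgNT level. Ier3, an early-response gene linked to cell survival, and Tnip1, which encodes a ubiquitin-binding partner of the deubiquitinase TNFAIP3, rose 1.35-fold and 1.34-fold. Members called made up 8.82% of those tested, and over all tested genes 345 were called, or 2.83%. By direction, 2 members were called higher and 1 was called lower, where 1.57% of all genes were called higher and 1.25% lower. An unadjusted p-value under 0.05 was reached by 5 members, and by 14.9% of all genes. The median log2 difference was 0.11 over the tested members and 0.04 over all tested genes, and 23 members had a positive and 11 a negative difference, against 6958 and 5249 of all tested genes. The test throughout was limma with a mean-variance trend, two-sided, with Benjamini-Hochberg adjustment over all 12207 genes. For each gene it estimated the spread in part from other tested genes of similar level, not only from the gene's own values. With 2 libraries against 2, the smallest p that exact permutation of the group labels allows is 0.333, which is why no such test is given.

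**Figure D1:**
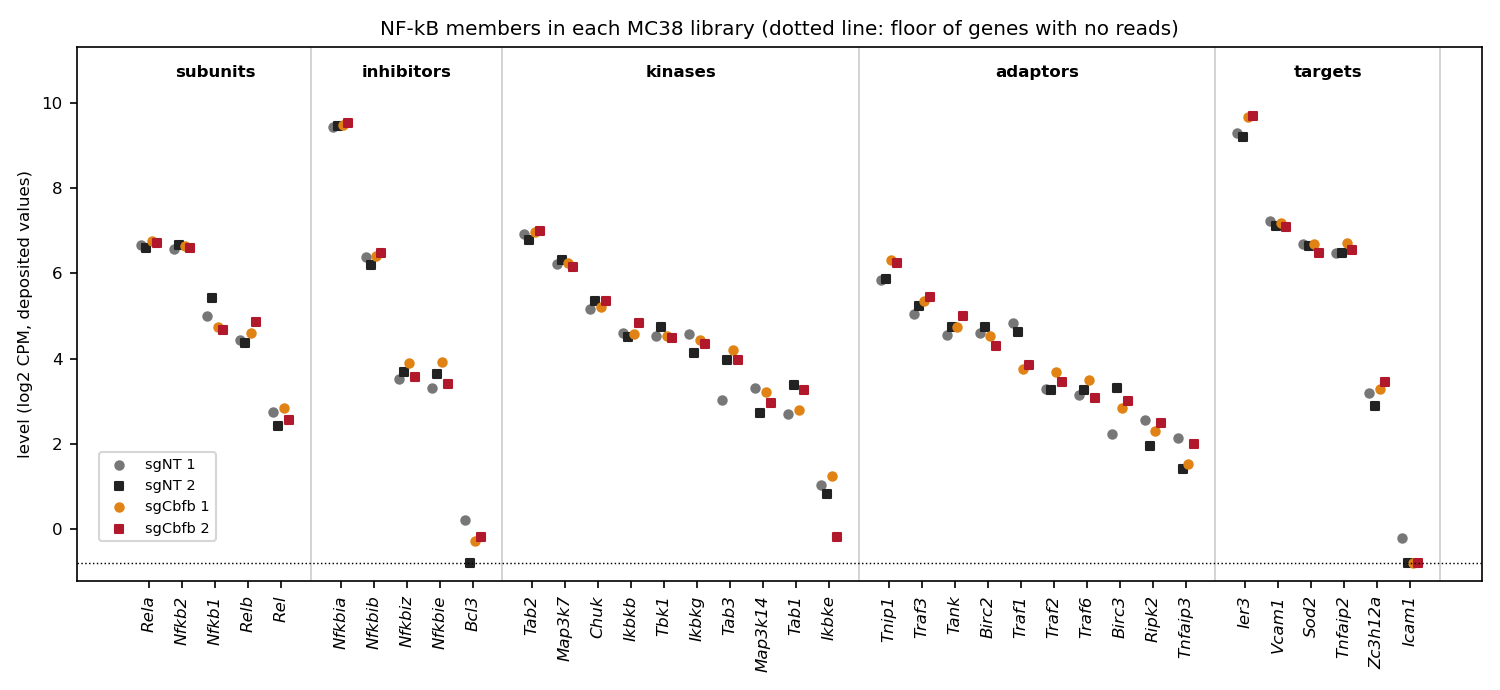
Level of each of the 36 members in each library, in log2 CPM, with members grouped by role and ordered by mean level. Circles and squares stand for replicates 1 and 2, grey and black for sgNT, orange and red for sgCbfb. The groups do not overlap for 16 of the 34 tested members, or 47.1%, against 44.1% of all tested genes. The called members Traf1, Tnip1 and Ier3 are among the 16.

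Nfkbia, which encodes IκBα, and Ier3 were the most abundant members, with 9769 and 9821 reads over the 4 libraries. At the other end, Icam1, the adhesion molecule gene often used as an NF-κB target, had 1 read in sgNT replicate 1 and 0 in the other libraries. A count of 0 allows up to 3 reads, or 0.768 to 0.941 CPM in these libraries. Bcl3, an atypical IκB protein that binds DNA-bound NF-κB, had 2 and 0 reads in sgNT and 1 and 1 in sgCbfb cells. These are the 2 members that were not tested. Vcam1, a second adhesion molecule gene, was by contrast well covered, at 7.23 and 7.11 log2 CPM in sgNT and 7.19 and 7.08 in sgCbfb cells.

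Of the upstream cues, Tnf itself had 0 reads in every library. Tnfrsf1a, which encodes the TNF receptor with a death domain, stood at 6.07 and 6.08 log2 CPM in sgNT and 6.23 and 5.97 in sgCbfb cells. The sgCbfb libraries lay on either side of the sgNT libraries, and the log2 difference was 0.03 (95% confidence interval -0.20 to 0.26).

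Among the subunits, Rela was the most abundant, at 6.66 and 6.60 log2 CPM in sgNT and 6.76 and 6.71 in sgCbfb cells. Both sgCbfb libraries lay above both sgNT libraries, but the log2 difference of 0.10 was not past the threshold (95% confidence interval -0.09 to 0.29, limma adjusted p = 0.674). Nfkb2, the precursor of the non-canonical subunit, was at nearly the same level, with 323 and 334 reads in sgNT and 388 and 304 in sgCbfb cells. The log2 difference of Nfkb2 was -0.0045 (95% confidence interval -0.20 to 0.19). The last 500 bases of Nfkb2 are overlapped by an exon of Psd on the opposite strand, and the sources used here do not say whether counting used strand.

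Nfkb1, which encodes the precursor of the p50 subunit that pairs with RelA, had the lowest p-value of the subunits. It had 107 and 141 reads in sgNT and 102 and 79 in sgCbfb cells, where the sgCbfb libraries stood at 4.74 and 4.66 log2 CPM. Scaled to library totals, both sgCbfb libraries were below both sgNT libraries, and the sgNT libraries differed from each other by more than the sgCbfb libraries did. The log2 difference was -0.51 (standard error 0.16, 95% confidence interval -0.85 to -0.17), and the adjusted p of 0.0993 from limma did not pass the threshold. It passed with a minimum of 5 CPM (limma adjusted p = 0.0415) and with the replicate number as a block (limma adjusted p = 0.0379). Without sgNT replicate 2, the higher of the sgNT libraries, the log2 difference was -0.30, and the adjusted p ranged from 0.0379 to 0.58 by limma over 14 alternatives.

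Relb, the non-canonical partner of the Nfkb2 product, had 72 and 67 reads in sgNT and 92 and 90 in sgCbfb cells. Its groups did not overlap on the log2 CPM scale, and the difference was 0.31 with a 95% confidence interval of -0.05 to 0.68 (limma adjusted p = 0.436). Without sgCbfb replicate 2 it was 0.19. Rel, best known from lymphoid cells, was the least abundant subunit, with 80 reads over the 4 libraries.

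The summed level of the 5 subunits was 255 and 264 CPM in sgNT and 264 and 257 CPM in sgCbfb cells. Of these reads Rela gave 38.1% ± 2.1 and 40.6% ± 0.46, and Nfkb2 37.6% ± 0.43 and 37.3% ± 0.45 (sgNT and sgCbfb, each SD, n = 2). The share of Nfkb1 was 14.2% ± 2.6 in the former and 9.76% ± 0.20 in the latter. Only for Rela, Relb and Nfkb1 did the shares of the groups not overlap. These shares come from the same reads as the differences above and are not separate evidence.

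None of the IκB family genes passed the threshold. Nfkbia stood at 9.43 and 9.45 log2 CPM in sgNT and at 9.47 and 9.51 in sgCbfb cells, so that all 4 libraries lay within a narrow band. The log2 difference was 0.05, with a 95% confidence interval of -0.06 to 0.17, or 0.958-fold to 1.12-fold. Nfkbia made up 87.4% ± 0.57 of the reads of the 5 IκB family genes in sgNT cells. In sgCbfb cells it made up 86.5% ± 0.49 (SD, n = 2 each). Nfkbib, which encodes IκBβ, was next, with a log2 difference of 0.16 (95% confidence interval -0.05 to 0.37). Nfkbie and Nfkbiz, a cytoplasmic and a nuclear IκB protein, had 161 and 170 reads over the 4 libraries, and their groups overlapped. All 4 tested IκB family genes had a positive difference, from 0.05 to 0.18, as did 6958 of all 12207 tested genes. Of these 4, limma called 0, against 2.83% of all tested genes. An unadjusted p under 0.05 was reached by 0 of 4, against 14.9% of all tested genes.

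**Figure D2:**
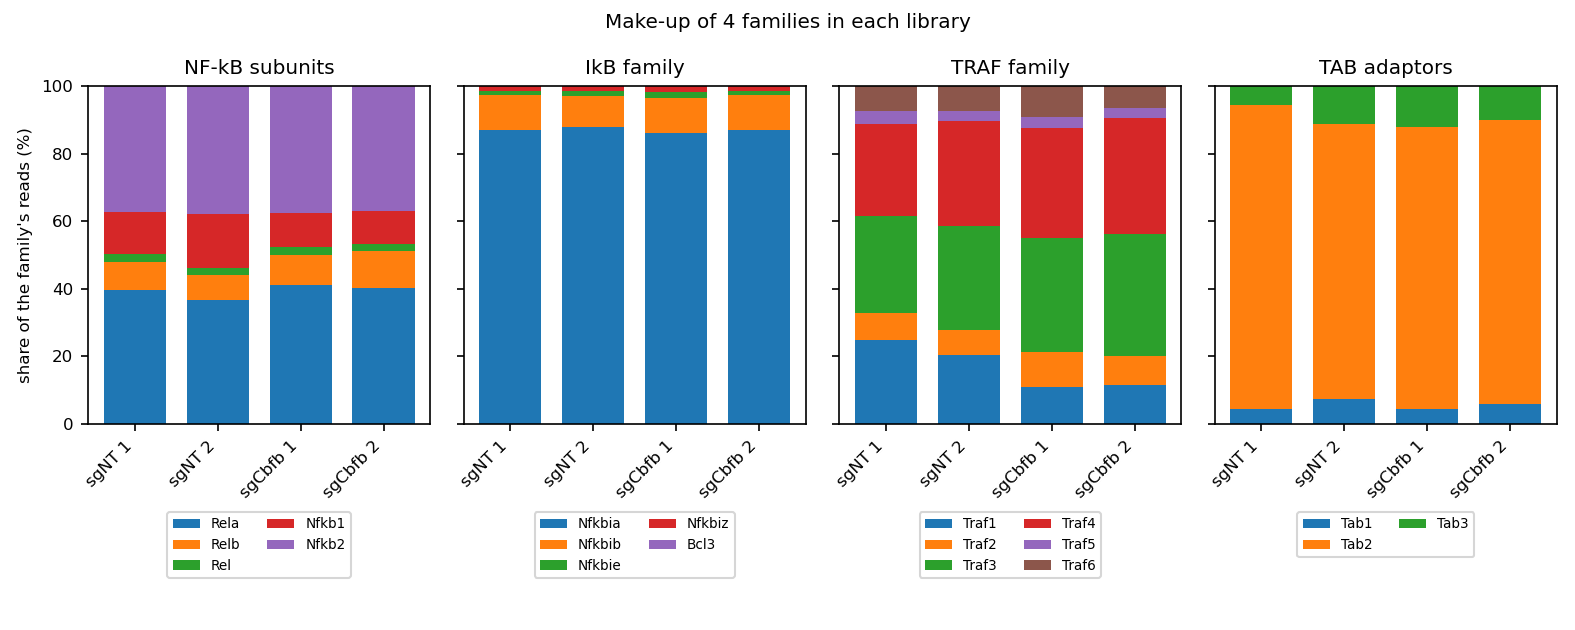
Share of reads (%) that each gene gave to its family's total, in each of the 4 libraries, for the subunits, the IκB family, the TRAF family and the TAB adaptors. The Traf1 segment falls from 22.5% in sgNT to 11.2% in sgCbfb cells on average, while Nfkbia and Nfkb2 keep similar shares.

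None of the 10 kinases and kinase adaptors was called by limma, where 2.83% of all tested genes were called. An unadjusted p under 0.05 was reached by 1 of the 10, Tab3, against 14.9% of all tested genes. Of the 3 genes of the IKK complex, Chuk encodes IKKα, Ikbkb encodes IKKβ and Ikbkg the regulatory subunit NEMO. Chuk had 120 and 135 reads in sgNT and 142 and 128 in sgCbfb cells, with a log2 difference of 0.01 (95% confidence interval -0.28 to 0.30). Ikbkb and Ikbkg differed by 0.14 and 0.03 on the log2 scale, and their groups overlapped. The 3 genes together summed to 82.4 and 79.8 CPM in sgNT and to 80.6 and 87.8 CPM in sgCbfb cells.

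Map3k7, which encodes TAK1, had a log2 difference of -0.07 (95% confidence interval -0.28 to 0.14). Map3k14, which encodes NIK of the non-canonical route, had 32 and 20 reads in sgNT and 34 and 23 in sgCbfb cells. Tbk1, a kinase of innate immune signalling, differed by -0.14 on the log2 scale, and its relative Ikbke was barely detected, with 17 reads over the 4 libraries. The groups of all 4 overlapped.

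The TAB proteins link TAK1 to ubiquitin chains. Tab2 was the most abundant of the kinase group, with 408 and 367 reads in sgNT and 487 and 406 in sgCbfb cells. The groups did not overlap on the log2 CPM scale, but the log2 difference of 0.13 did not pass (limma adjusted p = 0.533). Tab3 stood at 3.04 and 3.96 log2 CPM in sgNT and at 4.21 and 3.97 in sgCbfb cells. The upper sgNT library of Tab3 was almost level with the lower sgCbfb library. The log2 difference of Tab3 was 0.59 (95% confidence interval 0.04 to 1.14, limma adjusted p = 0.293), the largest positive difference among the members. It rested on sgNT replicate 1, since without that library it was 0.13, and without sgNT replicate 2 it was 1.05 (limma adjusted p = 0.0848). The 3 TAB genes summed to 134 and 135 CPM in sgNT and to 149 and 151 CPM in sgCbfb cells.

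Traf1 gave the largest difference of any member in either direction. It lies on the minus strand of chromosome 2 (34941750 to 34961772, GRCm38). It had 95 and 81 reads in sgNT and 51 and 44 in sgCbfb cells, or 4.84 and 4.64 against 3.77 and 3.85 log2 CPM. The groups were far apart compared with the gap between replicates of either group. The log2 difference was -0.93 (standard error 0.19, 95% confidence interval -1.33 to -0.53, limma adjusted p = 0.00566). Quantile normalization ended the call (limma adjusted p = 0.083), as did leaving out the trend, sgNT replicate 1 or either sgCbfb library. Over the 14 alternatives the difference was -1.03 to -0.83 and the adjusted p 0.000354 to 0.551 by limma.

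None of the other TRAF genes passed the threshold. Traf3, a brake on the non-canonical route, had 110 and 123 reads in sgNT and 156 and 138 in sgCbfb cells, a log2 difference of 0.26 (95% confidence interval -0.03 to 0.55, limma adjusted p = 0.397). Traf2, the core adaptor of TNF receptors, differed by 0.30 (95% confidence interval -0.24 to 0.83), and Traf6, the adaptor of the IL-1 and Toll-like receptors, by 0.09. With Traf4 and Traf5 added, the TRAF genes summed to 113 and 120 CPM in sgNT and to 119 and 120 CPM in sgCbfb cells. Traf1 made up 24.7% and 20.2% of these reads in sgNT but 11.0% and 11.5% in sgCbfb cells. Whether Traf1 differed from the other TRAF genes in its change was not tested.

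Tnip1 lies on the minus strand of chromosome 11 (54910785 to 54962917, GRCm38) and was the most abundant adaptor of the group. It had 192 and 194 reads in sgNT and 309 and 240 in sgCbfb cells, or 5.84 and 5.88 against 6.32 and 6.24 log2 CPM. The replicates of each group nearly coincided once scaled to library totals. The log2 difference was 0.42 (standard error 0.11, 95% confidence interval 0.20 to 0.64, limma adjusted p = 0.026), or 1.15-fold to 1.56-fold. Quantile normalization ended the call (limma adjusted p = 0.152), as did leaving out the trend or any one of the 4 libraries. Over the 14 alternatives the difference was 0.39 to 0.46 and the adjusted p 0.00877 to 0.551 by limma. Tnfaip3, whose product works with that of Tnip1 in ending NF-κB signals, was thinly covered, with 13 and 7 reads in sgNT and 9 and 11 in sgCbfb cells. Its log2 difference of -0.01 has a 95% confidence interval of -0.86 to 0.84, so that a change of the size seen for Tnip1 was not detectable at this depth.

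The cIAP genes were of interest because the study followed cIAP protein. Before TNF, the paper reports cIAP and XIAP protein at similar levels in both groups of MC38 cells. The values here are of RNA. Birc2, which encodes cIAP1, stood at 4.59 and 4.74 log2 CPM in sgNT and at 4.53 and 4.30 in sgCbfb cells. Both sgCbfb libraries were lower, with a log2 difference of -0.25 (95% confidence interval -0.62 to 0.12, limma adjusted p = 0.568). Birc3, which encodes cIAP2, had 14 and 31 reads in sgNT and 26 and 24 in sgCbfb cells, and the gap between its sgNT libraries was the widest of any tested member in that group. Tank, a scaffold of the TBK1 kinases, differed by 0.22 (limma adjusted p = 0.598), and Ripk2, the kinase downstream of NOD receptors, had 62 reads over the 4 libraries and a difference of 0.14.

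Among the induced genes Ier3 was the member with the smallest p-value. It is a short gene on the plus strand of chromosome 17 (35821684 to 35822923, GRCm38). It had 2109 and 1946 reads in sgNT and 3154 and 2612 in sgCbfb cells, or 9.28 and 9.19 against 9.66 and 9.68 log2 CPM. Both sgCbfb libraries lay well above both sgNT libraries. The log2 difference was 0.43 (standard error 0.057, 95% confidence interval 0.32 to 0.55, limma adjusted p = 2.07e-05), or 1.24-fold to 1.46-fold. The call held under every scaling tried, quantile normalization included (limma adjusted p = 0.0261), and was lost without the trend and without either sgCbfb library. Over the 14 alternatives the difference was 0.39 to 0.48 and the adjusted p 3.41e-09 to 0.423 by limma.

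The other induced members did not pass. Sod2, the mitochondrial superoxide dismutase, and Vcam1 differed by -0.08 and -0.04 on the log2 scale, with 95% confidence intervals of -0.29 to 0.12 and -0.21 to 0.14. Tnfaip2 stood at 6.47 and 6.48 log2 CPM in sgNT and at 6.72 and 6.55 in sgCbfb cells, a difference of 0.16 (limma adjusted p = 0.46). Zc3h12a, which encodes an RNase that degrades cytokine mRNAs, had 29 and 23 reads in sgNT and 36 and 33 in sgCbfb cells. Its groups did not overlap, and the log2 difference was 0.33 (95% confidence interval -0.25 to 0.90, limma adjusted p = 0.652). Without sgNT replicate 2 it was 0.18.

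**Figure D3:**
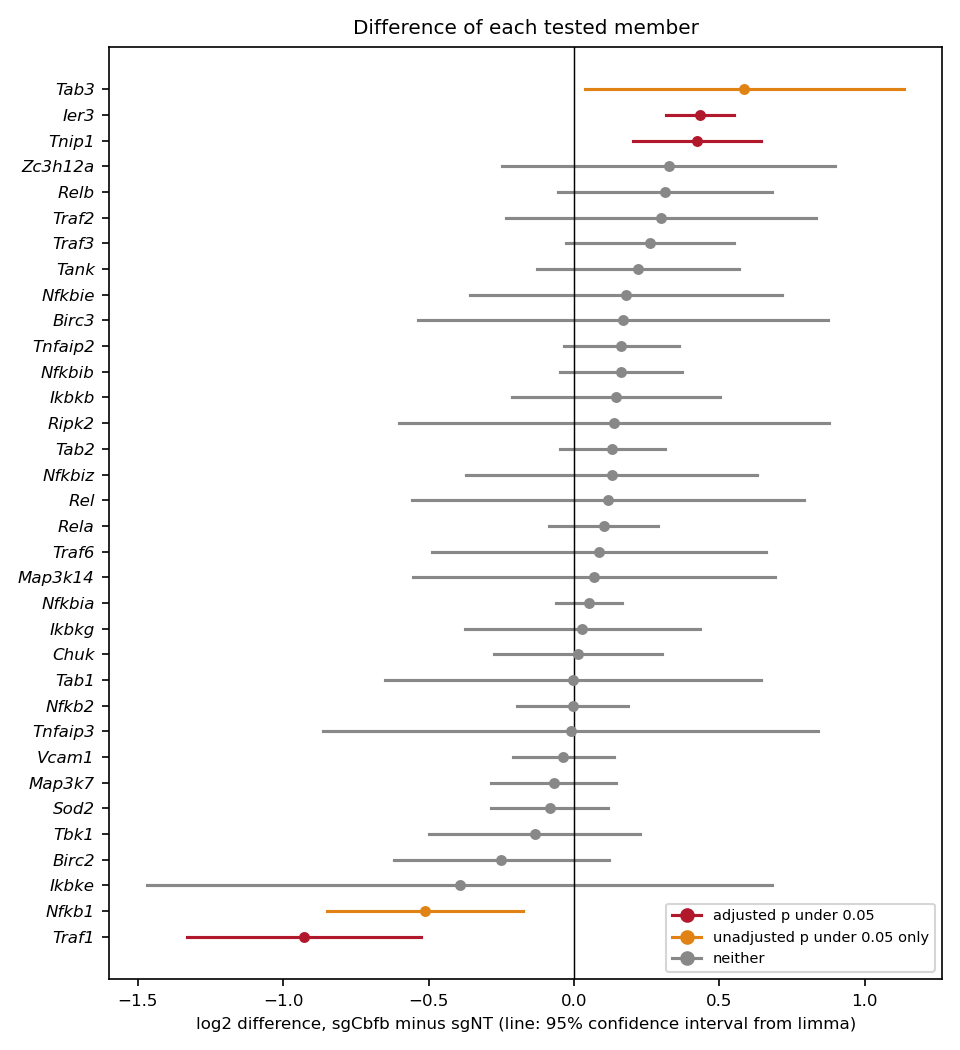
Log2 difference (sgCbfb minus sgNT) of the 34 tested members with 95% confidence intervals from limma, ordered by size. Red marks an adjusted p under 0.05 (Traf1, Tnip1 and Ier3), orange an unadjusted p under 0.05 only (Nfkb1 and Tab3) and grey the rest, whose intervals span 0.

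Across all members, the groups did not overlap for 16 of the 34 tested, or 47.1%, against 44.1% of all tested genes. Of these, 13 (38.2% of the tested members) were higher in sgCbfb cells, against 27.4% of all tested genes, and 3 (8.82%; Traf1, Nfkb1 and Birc2) were lower, against 16.8%. The total share is near the background, and the split by direction was not tested. The 31 members that were not called had adjusted p-values from 0.0993 to 0.997 by limma. The width of the intervals went with depth, which the fit builds in, since the mean-variance trend ties a gene's spread to its level. For the 10 members with 1000 reads or more over the 4 libraries the 95% confidence interval reached 0.11 to 0.21 to either side on the log2 scale. For the 5 tested members with under 100 reads (Rel, Ikbke, Birc3, Ripk2 and Tnfaip3) it reached 0.67 to 1.07, and for the 19 members in between 0.22 to 0.65. Of the 3 calls, 1 (Ier3) was in the deepest class, 2 were in the middle class and 0 in the shallowest.

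The proximal promoters of the called members are shown because κB sites, which NF-κB binds, and RUNX sites, which the partners of CBFβ bind, can be searched in them. Sequences are RefSeq promoters of GRCm38.p6, from 250 bases before the start to 50 bases from the start on, written 5′ to 3′ on the gene's strand. They were available for 29 of the 36 members, with 40 starts. Nfkbia is added for contrast, as an abundant member whose level was similar in all libraries, and was chosen after its values were seen. Capitals mark matches, on either strand, to the κB consensus (given by name, since its letters are degenerate) or to the RUNX motifs TGTGGT and TGCGGT.
Traf1 at chr2:34961723-34962022, minus strand: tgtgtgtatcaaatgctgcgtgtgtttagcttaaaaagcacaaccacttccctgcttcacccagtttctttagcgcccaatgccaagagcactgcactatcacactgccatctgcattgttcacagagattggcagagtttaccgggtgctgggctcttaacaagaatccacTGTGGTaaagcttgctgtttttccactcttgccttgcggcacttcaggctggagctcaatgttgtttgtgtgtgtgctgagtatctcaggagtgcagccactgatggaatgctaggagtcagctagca
Tnip1 at chr11:54962891-54963190, minus strand: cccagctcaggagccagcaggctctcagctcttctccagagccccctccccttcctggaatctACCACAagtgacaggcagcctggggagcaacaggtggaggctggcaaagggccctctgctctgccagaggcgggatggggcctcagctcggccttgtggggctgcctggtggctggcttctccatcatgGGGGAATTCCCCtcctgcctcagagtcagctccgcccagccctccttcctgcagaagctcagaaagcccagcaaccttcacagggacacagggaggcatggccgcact
Ier3 at chr17:35821463-35821762, plus strand: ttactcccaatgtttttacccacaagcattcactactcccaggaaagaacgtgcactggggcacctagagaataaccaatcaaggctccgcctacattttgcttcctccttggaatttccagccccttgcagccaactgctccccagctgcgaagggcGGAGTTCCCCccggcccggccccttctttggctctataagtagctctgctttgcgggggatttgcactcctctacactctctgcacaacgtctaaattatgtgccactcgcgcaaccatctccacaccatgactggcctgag
Nfkbia at chr12:55492598-55492897, minus strand: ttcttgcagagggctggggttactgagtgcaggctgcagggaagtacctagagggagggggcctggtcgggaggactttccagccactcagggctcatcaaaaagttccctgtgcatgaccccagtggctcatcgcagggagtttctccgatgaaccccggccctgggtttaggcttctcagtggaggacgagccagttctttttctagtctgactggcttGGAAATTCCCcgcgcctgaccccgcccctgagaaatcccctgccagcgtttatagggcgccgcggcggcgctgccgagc

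In the Traf1 window 1 TGTGGT stood at position -78, counted from the start as 0, and there was no match to the κB consensus. The Tnip1 window held a palindromic stretch from position -58 with 4 overlapping κB matches, 2 on each strand, and a TGTGGT on the opposite strand at -187. The Ier3 window held 1 κB match on the opposite strand at -92, and that of Nfkbia 1 at -29, also on the opposite strand. No promoter was listed for Nfkb1. A match is a run of letters and does not show that a protein binds there.

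Over all members, 18 of 40 promoters (45%) held a κB match, against 8.46% of 32851 RefSeq promoters of the same length. The members were chosen as NF-κB factors and targets, so a higher share follows in part from that choice. Some of the 40 windows belong to the same gene and overlap, and per gene 13 of 29 held a match. The share per gene over all promoters was not computed. TGTGGT was found in 5 member promoters (12.5%) and in 16.8% of all promoters, and TGCGGT in 5 (12.5%) and in 6.45%. Of the 13 genes with a κB match, 12 were tested, and their median log2 difference was 0.14, with 8 positive, 2 called higher (Tnip1 and Ier3) and 0 lower by limma. Of the 15 tested genes without one, 11 were positive, 0 were called higher and 1 (Traf1) lower, with a median of 0.09. Over all tested genes 1.57% were called higher and 1.25% lower, and the difference between members with and without a match was not tested.

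**Figure D4:**
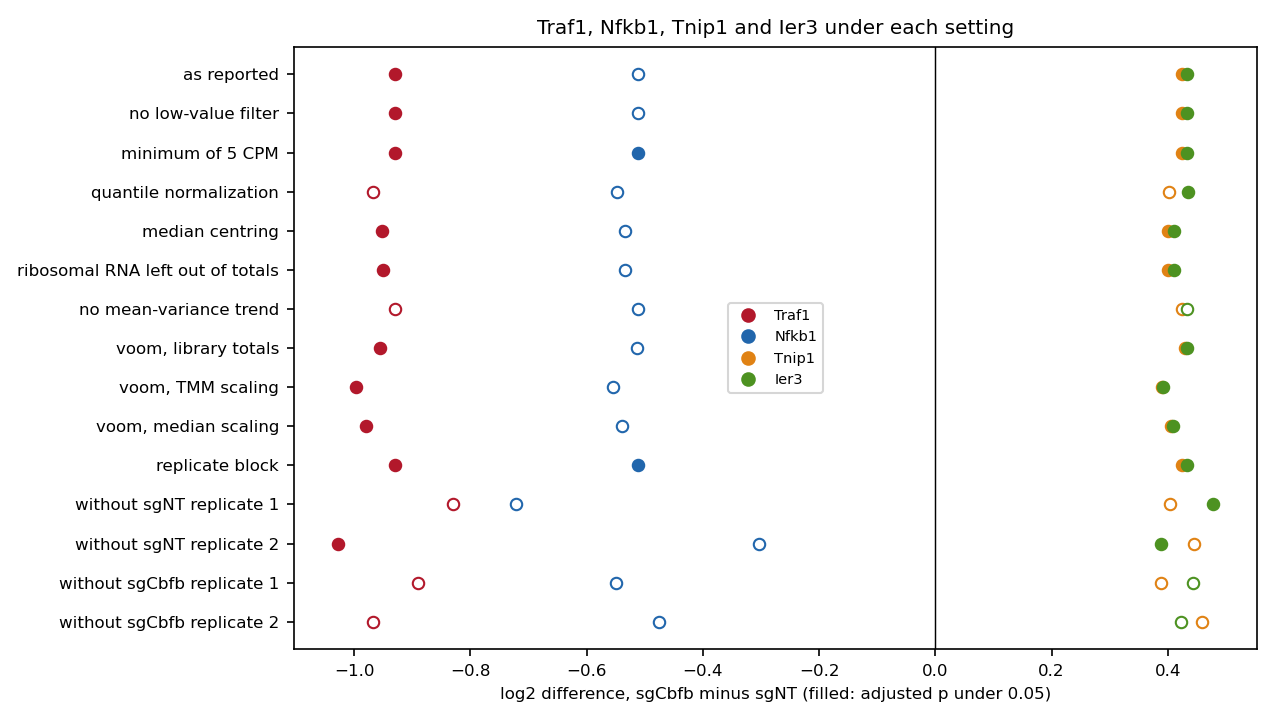
Log2 difference (sgCbfb minus sgNT) of Traf1, Nfkb1, Tnip1 and Ier3 as reported and under 14 alternatives, filled where the adjusted p was under 0.05. The groups do not overlap for these genes, so leaving out a library cannot reverse a sign. All differences keep their sign, and all 4 symbols are open without the trend and without either sgCbfb library.

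A list of 64 other genes of the pathway, from receptors to ubiquitin enzymes, gave 3 calls among 59 tested, or 5.08%, against 2.83% of all tested genes. The median log2 difference was 0.03. Peli1, which encodes a ubiquitin ligase of the IL-1 and Toll-like receptor route, rose 1.99-fold, from 45 and 48 reads in sgNT to 123 and 80 in sgCbfb cells (limma adjusted p = 0.00273). Rnf11, which encodes a partner of the TNFAIP3 ubiquitin-editing complex, fell by 0.58 on the log2 scale, with 210 and 193 reads in sgNT and 176 and 113 in sgCbfb cells (limma adjusted p = 0.0123). Rbpj, better known as the DNA-binding factor of Notch signalling, fell by 0.55 on the log2 scale, with 272 and 232 against 211 and 153 reads (limma adjusted p = 0.0064). All 3 calls were lost with quantile normalization, without the trend and without either sgCbfb library, and those of Rbpj and Rnf11 also without sgNT replicate 1 and that of Rnf11 without sgNT replicate 2.

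A list of 76 other genes that NF-κB can induce gave 13 calls among 59 tested, or 22.0%, against 2.83% of all tested genes. Of these, 6 were higher and 7 lower in sgCbfb cells, so that they did not move in 1 direction, and over all tested genes 1.57% were called higher and 1.25% lower. The median log2 difference was 0.01. The list was chosen with earlier results of these data known, among them those of Mt2 and Fth1, and its share of calls is a description of the list only. Each of these genes also answers to other factors. Of the secreted signals, the neutrophil chemokine Cxcl1 fell from 6.35 and 6.58 log2 CPM in sgNT to 5.06 and 5.13 in sgCbfb cells (log2 difference -1.37, limma adjusted p = 4.82e-08). The monocyte chemokine Ccl7 fell by 0.56 on the log2 scale (limma adjusted p = 0.000535). The cytokine Il11 went the other way, from 13 and 11 reads to 33 and 38 (limma adjusted p = 0.0155).

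Of the enzymes, Mmp9, a matrix metalloprotease, rose 2.71-fold, from 39 and 31 reads to 122 and 86. Ptges, the inducible prostaglandin E synthase, fell to 43.1% of the sgNT level, from 422 and 337 reads to 176 and 163. The remaining calls were higher Dusp2, Tap1 and Marcks, with differences of 0.87, 1.23 and 0.52, and lower Ccnd1, Sdc4, Mt2 and Fth1, with differences from -0.49 to -0.27 on the log2 scale. All 13 calls were lost without the trend and without either sgCbfb library. Those of Cxcl1, Ptges, Mmp9 and Fth1 held under the other alternatives, and quantile normalization ended those of Marcks, Tap1, Dusp2, Il11, Ccl7, Sdc4 and Mt2. That of Il11 was also lost without the filter on low values. Those of Tap1, Dusp2, Il11, Sdc4 and Ccnd1 were lost without sgNT replicate 1, and those of Ccl7, Mt2, Il11, Sdc4 and Ccnd1 without sgNT replicate 2.

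**Figure D5:**
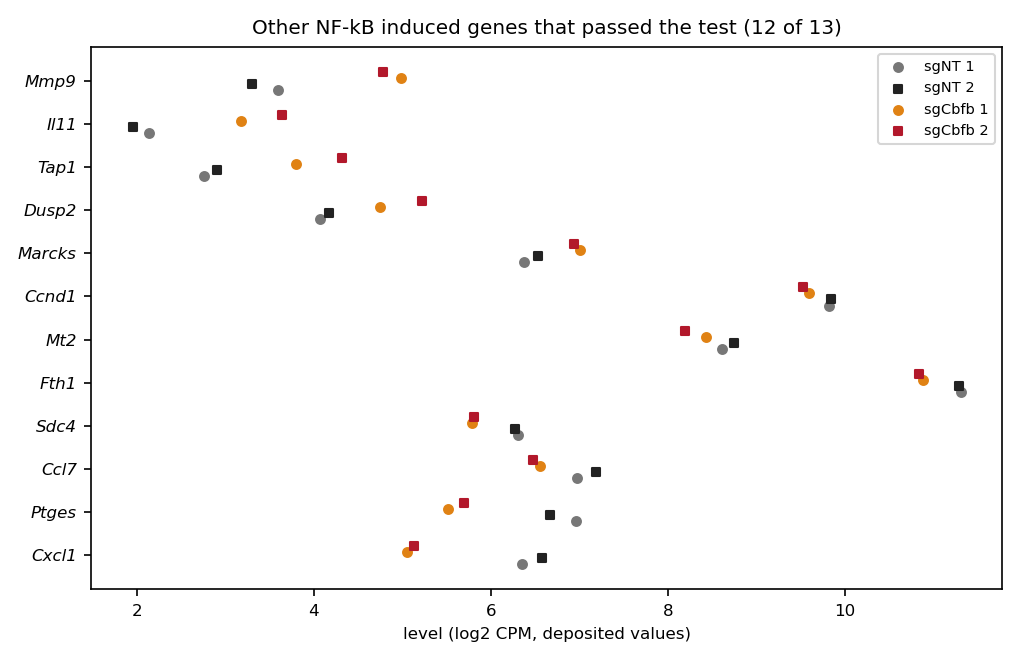
Level in each library (log2 CPM) of 12 of the 13 other NF-κB induced genes that passed the test, ordered by log2 difference. Symbols as in the plot of members by library. In the upper 5 genes both sgCbfb libraries lie to the right of both sgNT libraries, and in the lower 7 to the left.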

How the data were processed

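RNA of MC38 cells, 2 sgNT and 2 sgCbfb samples, was profiled by 3′ mRNA sequencing. According to the paper's methods and the submitters' processing notes, the authors trimmed reads with cutadapt 1.9, aligned them to mm10 with HISAT2 2.1.0 and counted them per gene with featureCounts. The featureCounts version differs between these sources, and the annotation release, strand setting and handling of reads that match several genes are not given in the sources used here. The authors deposited log2 CPM, and the values fit a scaling by the total of the library itself with a prior count of 2.

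Whole reads were recovered from the steps between values. In every library 99.99% or more of the genes with reads gave a number less than 0.1 away from a whole read. Differences were tested on the deposited log2 CPM by limma 3.58.1 (R 4.3.3) with a mean-variance trend, where the study names voom and limma. Confidence intervals are at 95%. Intervals and floors cover counting error and the spread between these libraries only. The procedure was tested on simulated data with changes larger than those of the called members, and not with changes of their size. Alternatives were 2 filters, 3 scalings, no trend, voom on recovered reads with totals, trimmed mean of M-values (TMM) and median scaling, the replicate number as a block, and each library left out.

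Members and lists were chosen with earlier results of these data known. Genes given in every library were the called members, those with an unadjusted p under 0.05, those whose groups did not overlap with a difference over 0.3, and the most abundant member of each role. Others were added to complete each role after their values were seen. Called genes of the other lists were named, except 1 induced gene that is counted but not reported here. Positions are from GENCODE M21, matched by symbol for all 36 members, and promoters from RefSeq GRCm38.p6. Figures were drawn with matplotlib 3.10.9.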

Additional observations from a re-analysis of the deposited data

How the results depend on the processing

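The log2 differences of all 24 genes followed through the alternatives kept their sign in every one of the 14. For each of these genes the groups did not overlap, so leaving out a library could not reverse the sign. The filters, no trend and the replicate block leave the difference itself unchanged. Only the scalings and voom could have changed a sign. For each change given here the cause was not tested. Against 2 members higher and 1 lower, quantile normalization gave 1 and 0, no mean-variance trend 0 and 0 (3 members and 1461 genes at an unadjusted p under 0.05 by limma), and a minimum of 5 CPM gave 2 lower. Against 345 calls over all genes, there were 83 with quantile normalization and 0 without the trend (454 by voom with library totals). Other pathway genes, 1 higher and 2 lower, went to 0 and 0 in both. Other induced genes, 6 higher and 7 lower, went to 2 and 4 with quantile normalization and to 0 and 0 without the trend.

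With each library left out in turn, members higher ranged from 0 to 1 and members lower from 0 to 1. Pathway genes ranged from 0 to 1 higher and 0 to 1 lower, induced genes from 0 to 5 higher and 0 to 5 lower, and calls over all genes from 0 to 201. Every one of these counts was 0 without sgCbfb replicate 1 and without sgCbfb replicate 2 (1104 and 1169 genes at an unadjusted p under 0.05 by limma), and the counts of members lower and of pathway genes lower were also 0 without sgNT replicate 1. The lone library is assumed to vary like the other group.

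The replicate block gave 2 members lower (Nfkb1 and Traf1), 2 pathway genes higher (Cd40 and Peli1) and 535 calls over all genes. The deviations of libraries that share a number had a correlation of -0.0042, and the labels do not say what they share. The share of higher calls went from 192 of 345 to 173 of 413 in voom with TMM scaling, whose median log2 difference over all genes was 0.00082. Genes with few reads, such as Tnfaip3 and Birc3, are limited by depth.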

Other observations

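On the pathway list 11 of 59 tested genes had an unadjusted p under 0.05 by limma, against 14.9% of all tested genes. Of those not called, the receptors and Cflar are given here, and Gsk3b, Irak4 and Cyld are left out. Il1r1, the signalling receptor of IL-1, had 68 and 58 reads in sgNT and 47 and 32 in sgCbfb cells, a log2 difference of -0.73 (standard error 0.22; limma adjusted p = 0.0793). It was called lower with a minimum of 5 CPM, in voom with TMM scaling and with the replicate block. Cd40, a TNF receptor family member, had 1 and 0 reads in sgNT and 4 and 11 in sgCbfb cells (limma adjusted p = 0.0717, called higher with the replicate block), too few to give the size of a change. Tlr4 had 29 and 35 reads in sgNT and 24 and 17 in sgCbfb cells, and Tlr2 had 21 and 9 in sgNT and 28 and 26 in sgCbfb cells, with adjusted p-values of 0.272 and 0.277 from limma. Cflar, which encodes the caspase-8 inhibitor cFLIP and is induced by NF-κB, had 81 and 75 reads in sgNT and 122 and 101 in sgCbfb cells, a log2 difference of 0.43 (95% confidence interval 0.10 to 0.76, limma adjusted p = 0.174). These genes were chosen after their values were seen. Xiap, the remaining IAP that the study followed as protein, had a log2 difference of 0.17 (95% confidence interval -0.15 to 0.49).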
